A study of Homo sapiens with 6 samples.

Results

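Internal fragments of tRNA-Gly-GCC that lie around the D-loop were followed in the melanoma line A375, an established human cell line, in 3 small RNA libraries of cells with a CRISPR/Cas9 knockout of DUS1L and 3 libraries of wild-type cells kept in parallel without targeting. The knockout cells went through clonal selection, and the labels do not say whether the 3 libraries came from 1 clone or several. The submitters call the libraries of a group biological replicates, and the p-values rest on the spread among them, which may be partly technical. Fragments were taken from a table of raw read counts, in which each identifier encodes its own sequence. Members were the internal tRNA fragments (i-tRFs, pieces that begin after the first base of the tRNA and end before its last) that lie within the longest 5' fragment of the code PNR8YP, a 5' piece of tRNA-Gly-GCC of 37 nt, or that share at least 14 consecutive bases with it. Fragments found in the longest 5' piece of the sister form P4R8YP but not in the PNR8YP piece were left out. This gave 216 of 3443 fragments, of which 185 lie wholly within the 37 nt and 31 differ from them at 1 base.

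Transfer RNA folds into an acceptor stem, a D arm, an anticodon arm and a T arm. The loop of the D arm is named after dihydrouridine, a reduced uridine that does not stack well on its neighbours and loosens the RNA locally. DUS1L is the human enzyme that makes dihydrouridine at the D-loop sites 16 and 17. The comparison shows how fragments around these sites differ between the knockout and wild-type libraries. Loss of the enzyme and clonal selection cannot be told apart in it, and dihydrouridine itself was not measured here. tRNA-Gly-GCC is known as a rich source of 5' fragments that end in the anticodon loop.

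The sequences below are DNA letters decoded from the identifiers and run 5' to 3', with the D-loop, places 14 to 20, in capitals. Places are counted along the fragment from 1 at the first base of the tRNA. Places 10 to 13 can pair with places 21 to 24, which leaves 14 to 20 as the loop. Place 16 is a T and place 17 is a G. Places match the usual tRNA numbers up to 16 and not beyond, since tRNA-Gly-GCC has no base 17. The PNR8YP and P4R8YP pieces come first, because they differ only by T5G (T at place 5 in the PNR8YP piece, G in the P4R8YP piece). The fragments after them are those on which the results turn, in the order of their first base.
tRF-37-PNR8YP9LON4VN11: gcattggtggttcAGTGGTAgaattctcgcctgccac
tRF-27-P4R8YP9LON3: gcatgggtggttcAGTGGTAgaattct
tRF-26-I89NJ4S2I7D: attggtggttcAGTGGTAgaattctc
tRF-25-Z3R918VBY9: ttggtggttcAGTGGTAgaattctc
Places 7 to 25: gtggttcAGTGGTAgaatt
tRF-16-9NJ4S2B: tggttcAGTGGTAgaa
tRF-18-9NJ4S2DE: tggttcAGTGGTAgaatt
Places 10 to 25: gttcAGTGGTAgaatt
Places 10 to 26: gttcAGTGGTAgaattc
Places 10 to 27: gttcAGTGGTAgaattct
tRF-18-18VBY9DV: AGTGGTAgaattctcgcc
tRF-16-9LON4VD: TGGTAgaattctcgcc
tRF-20-9LON4VN1: TGGTAgaattctcgcctgcc
tRF-19-VBY9PY11: TAgaattctcgcctgccac

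The 37 nt matched the tRNA genes TRG-GCC2-1 (chromosome 1, 161523847 to 161523917, minus strand) and TRG-GCC2-4 (chromosome 16, 70779039 to 70779109, minus strand) in GRCh38, at 161523881 to 161523917 and at 70779073 to 70779109. Both were found within the sequence of annotated transcripts of the opposite strand, of FCGR2A and of AC027281.2. The RefSeq annotation lists 13 TRG-GCC genes, on chromosomes 1, 2, 6, 16, 17 and 21, and the other copies were not searched here. From place 6 to place 27 the PNR8YP and P4R8YP pieces read alike, and the 27 members that lie within both cannot be assigned to either form alone. Members of any start that end before place 33 do not reach the base that differs in tRNA-Gly-CCC, so they were not told apart from that tRNA. The P4R8YP piece ends at place 27, so for members that begin at place 6 or later and run past 27 the forms were not compared.

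The members were 16 to 35 nt long, began at places 2 to 22 and ended at places 18 to 37, and 193 of them hold place 16. Counts were uneven. The 216 members had 9581 counts in the 6 libraries together, of which 2 fragments took 46.0%, while 129 members had fewer than 10 counts and 39 had 1. At the edge of the membership rule, 3 members shared exactly 14 bases and had 1 count each, and 2 fragments that shared 12 or 13 bases, left out, had 4 counts in all.

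As a whole the members took a larger share of the library in the knockout. They had 1986, 1425 and 2276 counts in knockout replicates 1 to 3, against 1729, 965 and 1200 in wild-type replicates 1 to 3. This was 9.43% ± 0.504 of all counts in knockout and 5.97% ± 0.631 in wild-type libraries (SD, n = 3 each), and every knockout library lay above every wild-type library. The difference was 3.46 percentage points, of which the fragment tRF-18-9NJ4S2DE accounted for 2.59. A larger share was not particular to the members. Internal fragments that are not members took 30.9% ± 1.44 in knockout and 23.3% ± 4.03 in wild-type libraries, a difference of 7.63 points. All internal fragments took 40.3% ± 0.983 in knockout and 29.2% ± 4.61 in wild-type libraries. Without the 2 most abundant members, tRF-18-9NJ4S2DE and tRF-16-9LON4VD, the remaining 214 members took 4.80% ± 0.330 in knockout and 3.40% ± 0.0153 in wild-type libraries. Such shares are relative within a library, so a rise of the members and a fall of other fragments cannot be told apart. Amounts per cell were not measured.

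Of the 216 members 25 had enough counts to be tested, and 11 of these were higher and 3 lower in the knockout by the quasi-likelihood test of edgeR with p-values adjusted over all 235 fragments tested (threshold 0.05). Over all fragments tested the same rule called 53.6%, with 25.5% higher and 28.1% lower. The median log2 fold change, knockout minus wild-type, was 0.95 for the tested members and -0.01 for all tested fragments. A fragment can pass the filter on counts in the group where it is high, so these figures describe the members that passed and not all 216. Counts per fragment scaled to 1000000 counts (CPM, with TMM scaling, which uses a trimmed mean of log ratios) did not overlap between groups for 18 of the 25, where 58.7% of all tested fragments did not overlap. The 14 calls were divided by where the fragments begin and end, as follows.

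Of 6 tested fragments that end just past the D arm, at places 25 to 27, 5 rose and the other did not pass the test. Over all tested fragments 25.5% were called higher. The range of places was chosen with results of these data known. Next to it, the tested fragment that ends at place 24 did not pass, and that at place 23 fell. Of 2 tested fragments that end at place 28, 1 rose and 1 fell. The most abundant member, tRF-18-9NJ4S2DE, which covers places 8 to 25 and so holds the whole D arm, had 36258, 28078 and 34520 CPM in knockout replicates 1 to 3, against 5569, 7439 and 8671 CPM in wild-type replicates 1 to 3. The lowest knockout library was well above the highest wild-type library. Its log2 fold change was 2.19 (edgeR adjusted p = 2.45e-04, SE 0.286), a 4.57-fold difference. With 1 base more at the 5' end, the fragment of places 7 to 25 had 59, 42 and 72 counts in knockout and 29, 8 and 13 counts in wild-type libraries. Scaled, this was 2832 ± 320 CPM in knockout and 716 ± 247 CPM in wild-type libraries (SD, n = 3 each), a log2 fold change of 1.93 (edgeR adjusted p = 5.14e-04, SE 0.304).

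The 3 tested fragments that begin at place 10, the first base of the D stem, all rose, where 25.5% of all tested fragments were called higher. The form of places 10 to 25 passed the filter on low counts only through its knockout counts, so its direction was favoured by the filter. The form that ends at place 26 had 89, 64 and 72 counts in knockout and 20, 10 and 12 counts in wild-type libraries. Its log2 fold change of 2.54 (edgeR adjusted p = 1.26e-04, SE 0.280) was the largest rise among the tested members. With 1 base less, the form of places 10 to 25 had 25, 14 and 18 counts in knockout and 5, 4 and 2 counts in wild-type libraries, a log2 fold change of 2.43 (edgeR adjusted p = 0.00159, SE 0.455). With 1 base more, the form of places 10 to 27 averaged 1909 ± 420 CPM in knockout and 747 ± 103 CPM in wild-type libraries (SD, n = 3 each), a log2 fold change of 1.35 (edgeR adjusted p = 0.00489, SE 0.308). In none of these 3 did a knockout library reach down to a wild-type library. Every member was also taken by its last base. Those that end at place 25 made up 40.0% ± 2.09 of the members' counts in knockout and 14.4% ± 2.69 in wild-type libraries (SD, n = 3 each). Most of these counts came from tRF-18-9NJ4S2DE, at 737 of 838, 475 of 542 and 799 of 904 in knockout libraries. In wild-type libraries it had 162 of 214, 112 of 128 and 182 of 209. Without it, the remaining 8 fragments took 0.453% ± 0.0340 of all counts in knockout and 0.136% ± 0.0301 in wild-type libraries. Not all of these were higher. tRF-22-Z3R918VBQ (places 4 to 25) had 3, 0 and 2 counts in knockout and 7, 3 and 3 counts in wild-type libraries.

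Fragments with the same first base, at place 8, differed by their last base, and the difference between them was not tested. The form that ends at place 23, tRF-16-9NJ4S2B, fell. It had 935, 1360 and 1166 CPM in knockout replicates 1 to 3, against 2063, 3520 and 1953 CPM in wild-type replicates 1 to 3, with no overlap. Its log2 fold change was -1.10 (edgeR adjusted p = 0.0131, SE 0.316), a call that ended without knockout replicate 1 (edgeR adjusted p = 0.0784), in the DESeq2 Wald test (0.0697) and with no filter on low counts (0.125). The form in between, tRF-17-9NJ4S2I (places 8 to 24), had 32, 27 and 32 counts in knockout and 39, 17 and 30 counts in wild-type libraries and did not pass the test (log2 fold change 0.21, SE 0.268, edgeR adjusted p = 0.537). Those that run on to place 26, tRF-19-9NJ4S2F5, and to place 35, tRF-28-9NJ4S2I7L7DV, did not pass either, at log2 fold changes of 0.51 ± 0.422 and -0.59 ± 0.487 (SE; edgeR adjusted p of 0.322 and 0.323). Of all counts of members within the 37 nt that begin at place 8, the form ending at 25 took 86.1% ± 2.28 in knockout and 50.7% ± 9.13 in wild-type libraries, and the form ending at 23 took 3.08% ± 0.899 in knockout and 17.6% ± 5.28 in wild-type libraries (SD, n = 3 each). Without the form ending at place 25, the other members that begin at place 8 took 0.535% ± 0.0504 of all counts in knockout and 0.691% ± 0.0397 in wild-type libraries.

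Longer members that begin near the 5' end, in the acceptor stem, parted by 1 base at the start. These hold place 5, where they match the PNR8YP form. Those that end before place 33 do not reach the base that differs in tRNA-Gly-CCC. Of 4 tested fragments that begin at place 3, 3 rose, and of 2 that begin at place 4, 1 fell. The other member in each case did not pass the test. Over all tested fragments 25.5% were called higher and 28.1% lower. Those from place 3 that rose passed the filter on low counts through their knockout counts. The fragment from place 4 that fell passed it through its wild-type counts. tRF-26-I89NJ4S2I7D (places 3 to 28) had 29, 19 and 22 counts in knockout and 16, 5 and 2 counts in wild-type libraries, a log2 fold change of 1.75 (edgeR adjusted p = 0.0107, SE 0.480). Without wild-type replicate 1, the highest of the wild-type counts, it was 2.54 (edgeR adjusted p = 0.00237). Over all alternatives its log2 fold change ranged from 1.37 to 2.54. tRF-25-Z3R918VBY9, which lacks the first base of that fragment (places 4 to 28), had 7, 4 and 7 counts in knockout and 26, 13 and 15 counts in wild-type libraries, a log2 fold change of -1.46 (edgeR adjusted p = 0.00825, SE 0.374). Once scaled, the groups did not overlap for either fragment. The call of tRF-25-Z3R918VBY9 ended without knockout replicate 1 (edgeR adjusted p = 0.0507) or 3 (0.0503), in the DESeq2 Wald test (0.111) and with no filter on low counts (0.109).

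The same pair of starts was seen with the last base at place 31, in the anticodon loop. tRF-29-I89NJ4S2I71V (places 3 to 31) had 48, 19 and 37 counts in knockout and 15, 6 and 7 counts in wild-type libraries, and rose with a log2 fold change of 1.99 (edgeR adjusted p = 0.00177, SE 0.383). tRF-28-Z3R918VBY9DV (places 4 to 31) had 24, 8 and 22 counts in knockout and 28, 12 and 11 counts in wild-type libraries, with overlap once scaled and a log2 fold change of 0.19 (edgeR adjusted p = 0.707, SE 0.402). tRF-30-I89NJ4S2I7L7 (places 3 to 32) also rose, by a log2 fold change of 1.19 (edgeR adjusted p = 0.0121, SE 0.335), but did not pass when wild-type replicate 2 was left out (edgeR adjusted p = 0.0579), in the DESeq2 Wald test (0.0572) or with no filter on low counts (0.230). The fourth fragment from place 3, tRF-33-I89NJ4S2I7L7DV (places 3 to 35), was at 673 ± 95.7 CPM in knockout and 554 ± 358 CPM in wild-type libraries (SD, n = 3 each), with an edgeR adjusted p of 0.652. Over all members within the 37 nt that begin at place 3 or 4, those from place 3 were 71.6% ± 4.63 of the counts in knockout and 44.1% ± 3.37 in wild-type libraries.

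In the P4R8YP form the share from place 3 was also higher in the knockout. Among internal fragments of that piece alone, those from place 3 were 44.4% ± 3.24 of the counts that begin at place 3 or 4 in knockout and 20.5% ± 1.02 in wild-type libraries (SD, n = 3 each). There tRF-23-IK9NJ4S2DE (places 3 to 25) had a log2 fold change of 2.43 (edgeR adjusted p = 4.71e-04, SE 0.378) and tRF-22-93R918VBQ (places 4 to 25) one of 1.17 (edgeR adjusted p = 0.0160, SE 0.350). The call of tRF-22-93R918VBQ ended without knockout replicate 1 or 2 and with no filter on low counts. The differences between such pairs were not tested.

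Fragments that begin inside the loop were read mostly from place 14 or place 16, and the difference between these starts was not tested. All 3 tested fragments from place 14, the first base of the loop, rose, where 25.5% of all tested fragments were called higher. Of these 3, tRF-16-18VBY9B passed the filter on low counts only through its knockout counts, so its direction was favoured by the filter. tRF-18-18VBY9DV (places 14 to 31) had 3296, 2483 and 3370 CPM in knockout replicates 1 to 3, against 1581, 1793 and 1286 CPM in wild-type replicates 1 to 3, a log2 fold change of 0.98 (edgeR adjusted p = 0.00987, SE 0.264). tRF-16-18VBY90 (places 14 to 29) was at 1852 ± 188 CPM in knockout and 870 ± 78.4 CPM in wild-type libraries (SD, n = 3 each), a log2 fold change of 1.08 (edgeR adjusted p = 0.00803, SE 0.275). Every knockout library was above every wild-type library in both, and both calls ended when no filter on low counts was used (edgeR adjusted p of 0.238 and 0.190). The third, tRF-16-18VBY9B, differs from it by G29A and had 16, 10 and 13 counts in knockout and 4, 5 and 3 counts in wild-type libraries. Its log2 fold change was 1.75 (edgeR adjusted p = 0.00976, SE 0.467), a call that ended without knockout replicate 1 (edgeR adjusted p = 0.0778) or wild-type replicate 1 (0.0567), in the DESeq2 Wald test (0.0572) and with no filter on low counts (0.0787).

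None of the 4 tested fragments that begin at place 16, the T at the site of DUS1L, passed the test with edgeR as reported or with DESeq2. The most abundant of them, tRF-16-9LON4VD (places 16 to 31), had 10184, 14187 and 14171 CPM in knockout replicates 1 to 3, against 15745, 20988 and 18533 CPM in wild-type replicates 1 to 3. All knockout values were lower once scaled, although its unscaled share of the library overlapped between groups, and the log2 fold change of -0.52 (SE 0.264) did not pass the test (edgeR adjusted p = 0.119). tRF-20-9LON4VN1 (places 16 to 35) had 26, 31 and 51 counts in knockout and 86, 43 and 57 counts in wild-type libraries, a log2 fold change of -0.68 (edgeR adjusted p = 0.0523, SE 0.270). It was called lower when 50 or more counts in 3 libraries were required (edgeR adjusted p = 0.0428), and its adjusted p under the other alternatives was 0.0620 to 0.544. The forms that end at places 32 and 33, tRF-17-9LON4V3 and tRF-18-9LON4VDP, were at 0.23 ± 0.381 and 0.49 ± 0.318 on the log2 scale (SE; edgeR adjusted p of 0.648 and 0.219). At an unadjusted p under 0.05, 1 of these 4 was lower, tRF-20-9LON4VN1. Of the counts of members within the 37 nt that begin at place 14 or 16, those from place 14 were 25.7% ± 5.01 in knockout and 11.6% ± 0.968 in wild-type libraries (SD, n = 3 each).

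Place 13, the last base of the 5' side of the D stem, gave 2 tested fragments, neither of which passed. tRF-19-J4S2I71V (places 13 to 31) had 39, 10 and 45 counts in knockout and 27, 10 and 12 counts in wild-type libraries, a log2 fold change of 1.03 (edgeR adjusted p = 0.0652, SE 0.437). Knockout replicate 2 lay among the wild-type values, and without it the edgeR adjusted p was 0.0156. Without wild-type replicate 1 it was 0.0445. tRF-17-J4S2I7K (places 13 to 29) had a log2 fold change of 0.95 (edgeR adjusted p = 0.0526, SE 0.381). It passed with library totals as the only scaling (edgeR adjusted p = 0.0332) and with DESeq2's size factors (0.0372).

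The members that begin past place 16 are 23 in number and low in counts, at 0.201% ± 0.00444 of the library in knockout and 0.281% ± 0.0240 in wild-type libraries (SD, n = 3 each). The 1 that could be tested, tRF-19-VBY9PY11 (places 19 to 37), had 11, 8 and 8 counts in knockout and 33, 16 and 17 counts in wild-type libraries, a log2 fold change of -1.15 (edgeR adjusted p = 0.0192, SE 0.356). This call ended without any 1 of the knockout libraries (edgeR adjusted p of 0.0628, 0.0715 and 0.112 without replicates 1, 2 and 3) or wild-type replicate 1 (0.0979), in the DESeq2 Wald test (0.186) and with no filter on low counts (0.236). All 13 members that end at place 37 took 0.0871% ± 0.00904 of the library in knockout and 0.227% ± 0.0229 in wild-type libraries (SD, n = 3 each). Of those too low to test, tRF-17-ON4VN11 (places 21 to 37) had 0, 1 and 1 counts in knockout and 12, 4 and 4 counts in wild-type libraries. tRF-16-D9W1X6D (places 22 to 37) had 3, 3 and 3 counts in knockout and 13, 5 and 4 counts in wild-type libraries. Members that begin at place 17, 5 in number, had 14, 14 and 22 counts in knockout and 12, 6 and 8 counts in wild-type libraries.

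The 191 members that could not be tested held 20.1% of the members' counts, and none had more than 60 counts in all. Of the 31 members that differ from the 37 nt, 16 carry G33C, with 37 counts together, and 3 carry G29A, with 76 counts. The others carry C28T in 5 members, C37T in 2, G15A in 2, T5G in 2 and C26T in 1. In these tokens the base of the 37 nt comes first, then its place, then the base of the fragment. Places 33 to 35 of the 37 nt hold the anticodon GCC, and G33C turns it into CCC, the anticodon of tRNA-Gly-CCC. The RefSeq annotation lists 9 TRG-CCC genes, so the members with G33C may come from that tRNA, which was not tested.

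The 5' fragments of the PNR8YP code, which begin at place 1, were also higher at some last bases and lower at others. tRF-26-PNR8YP9LOND, which ends at place 26, had 32, 41 and 36 counts in knockout and 17, 10 and 13 counts in wild-type libraries, and rose with a log2 fold change of 1.56 (edgeR adjusted p = 0.00249, SE 0.319). The form that ends at place 28, tRF-28-PNR8YP9LOND5, was lower, with a log2 fold change of -1.01 (edgeR adjusted p = 0.0304, SE 0.350), a call lost on leaving out wild-type replicate 1 or 2 and also without any 1 of the knockout libraries, with no filter on low counts and with a replicate block. Of 13 tested PNR8YP 5' fragments 2 were higher and 2 lower (30.8% called), and the median of their log2 fold changes was -0.36. The other higher fragment was tRF-25-PNR8YP9LON and the other lower was tRF-34-PNR8YP9LON4VHM, whose groups overlapped. Both calls were lost in the DESeq2 Wald test, with no filter on low counts and without any 1 of the knockout libraries. Of 8 tested P4R8YP 5' fragments 5 were higher and none lower (62.5% called), with a median of 1.31. Over all tested fragments 53.6% were called.

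Library totals were 20807, 16047 and 23063 counts in knockout replicates 1 to 3 and 32754, 15742 and 18427 counts in wild-type replicates 1 to 3. Wild-type replicate 3 stood farther from the other wild-type libraries (chi-square per degree of freedom of 12.6 and 7.51) than any other pair within a group did (2.69 to 3.89). Without it all 11 higher and all 3 lower members stayed on their side of the threshold. The table holds no mRNA, so neither the loss of DUS1L nor the identity of the cells could be checked from it.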

How the data were processed

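The values the authors deposited are raw counts of reads for each tRNA fragment, whole numbers with no normalization. Total RNA was made into small RNA libraries and sequenced single-end, per the labels' protocols, and reads were assigned to tRNA fragments with MINTmap, per the labels. The submitters' processing notes name FastQC, cutadapt, DESeq2 and GRCh38/hg38; no versions are named there. Reads carry no molecular identifiers, so counts include amplification.

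Each identifier was decoded into its sequence and placed along the longest PNR8YP 5' fragment. Counts were scaled by TMM and compared with edgeR 4.0.16 (R 4.3.3), quasi-likelihood test, all 6 libraries, no covariates, Benjamini-Hochberg adjustment over all 235 fragments that passed filterByExpr with a minimum of 10 counts. The SE is the log2 fold change divided by the square root of F. The fit was tested on simulated data. Total counts per library ranged from 15742 to 32754. Shares are of all counts in a library and have no test.

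Members, lists and comparisons were chosen with earlier results of these data known. By rule, the 7 tested members with a mean of 30 or more counts were named with values; the other members and the further sequences were picked after their values were seen. Members overlap in sequence and are not independent. Alternatives were other scalings, filters, the DESeq2 1.42.0 Wald test, a replicate block, other limits of shared bases, and leaving out each library.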

Additional observations from a re-analysis of the deposited data

How the results depend on the processing

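The 11 higher and 3 lower members remained called with DESeq2's size factors, upper quartile scaling and library totals only. Requiring 50 or more counts in 3 libraries left 4 members testable, of which 2 were higher and 1, tRF-20-9LON4VN1, lower, and 38 of 66 fragments called in all. With no filter on low counts, all 216 members were tested, and 9 were higher and 1 lower (18 and 7 at an unadjusted p under 0.05). Of the 11 higher members, 7 remained called (all but tRF-18-18VBY9DV, tRF-16-18VBY90, tRF-16-18VBY9B and tRF-30-I89NJ4S2I7L7). None of the 3 lower members remained called. With the Wald test of DESeq2, 9 members were higher and 0 lower (1 lower at an unadjusted p under 0.05, against 3 called by edgeR). It called 36.2% of all 235 fragments, 23.0% higher and 13.2% lower. Leaving out 1 library gave 10 to 12 higher members, 0 to 3 lower members, 73 to 159 calls in all and a difference in the members' share of 3.11 to 3.73 percentage points. The count of lower members was 0 without knockout replicate 1 (3 at an unadjusted p under 0.05) and 1 without knockout replicate 3, and calls in all were 73 without knockout replicate 1. Direction turned for tRF-17-9LON4V3 without wild-type replicate 1 (log2 fold change -0.065, and 0.56 without wild-type replicate 3) and tRF-33-I89NJ4S2I7L7DV without wild-type replicate 3 (-0.10, and 0.66 without wild-type replicate 1), neither of which was called; the cause was not tested. Of 304 values of single fragments under an alternative, 275 kept their direction and side of the threshold, 22 lost the call and 5 gained it. The median of all tested fragments moved by 0.113 with DESeq2's size factors, 0.116 with DESeq2's test, 0.118 with the stricter filter and 0.108 without wild-type replicate 3.

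Same-numbered libraries correlated at 0.371, -0.0703 and 0.107 in their deviations. With 3 libraries per group this cannot settle whether the numbers pair the samples. Knockout replicates 1 and 3 correlated best with the wild-type library of their own number and knockout replicate 2 did not. With the replicate block 11 members were higher and 3 lower, and 116 fragments were called in all. Depth limited the test to 25 of 216 members.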
